A study of Arabidopsis thaliana with 4 samples.

Results

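The genes described here are ELF3, ELF4, PCL1/LUX, and BOA, which encode the evening complex of the plant circadian clock and a close relative of its DNA-binding subunit, and the 4 ELF4-like genes ELF4-L1 to ELF4-L4. They were taken by identifier, and all 8 of the 8 were found among the 23281 features of the Nanopore expression table. These members were selected on an earlier result from the same table, in which clock genes, ELF4 among them, differed between replicates. Differences between the replicates in these genes are therefore a description, and no test is given for them.

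The evening complex consists of ELF3, ELF4, and LUX. LUX is a GARP-type transcription factor that binds DNA, ELF3 is a scaffold protein, and ELF4 is a small protein that binds ELF3. The assembled complex accumulates around dusk and represses genes such as PRR9 and PIF4, and plants that lack a subunit lose rhythm and flower early. BOA (BROTHER OF LUX ARRHYTHMO, also called NOX) has a GARP domain like that of LUX, and the ELF4-like proteins share the conserved domain of ELF4, while less is known of what they do.

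The plants were wild-type *Arabidopsis thaliana* of ecotype Col-0, grown at 23 °C by day and 18 °C by night with 16 h of light and 8 h of dark, and their aboveground parts were collected when rosette growth was complete. The Nanopore cDNA-PCR libraries (ONT Pc), in which cDNA is amplified before it passes the pore, form 1 group of 3 replicates, CK1, CK2, and CK3. Each replicate was a pool of plants of the same genotype with no treatment, so the design has no condition to compare. A single PacBio library of plants with the same labels has a list of isoforms by protein family and no expression values. The hour at which each replicate was collected is not given in the sources used here.

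The files gave counts per 1000000 reads (CPM), and the read number behind each value was recovered, with 100% of values above 0 being whole multiples of 1 read. CK1 had 8122432 reads, CK2 7386184, and CK3 6835029. As deposited, CK1 adds to 1000000 CPM and the other replicates to 476263 and 305905, so CPM here are rescaled to the own reads of each replicate. In this scale 1 read is worth 0.123 CPM in CK1, 0.135 in CK2, and 0.146 in CK3. Intervals on reads are exact Poisson 95% intervals, those on shares are exact Clopper-Pearson 95% intervals, and those on ratios of reads are exact 95% intervals conditional on their sum. The libraries were amplified by PCR and carry no molecular identifiers, so these intervals cover counting error only and say nothing of the spread between plants. In whole shoots, a change in the number of cells that express a gene and a change in RNA per cell cannot be told apart. The 5 leaf markers (RBCS1A, RCA, LHCB1.3, PSBO1, SBPASE) summed to between 51462 CPM, in CK3, and 59485 CPM, in CK1, and the part of this in the results was not tested. The 3 floral markers (AG, AP3, PI) summed to at most 2.03 CPM. Of 5 root markers, PYK10 was at 17.4 to 18.1 CPM, IRT1 was at 0, and CASP1 had at most 2 reads. COBL9 and EXPA7 were looked up and were not among the features with expression values.

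The sequence before each gene shows what the members share and where they differ, apart from the measured levels. Windows of 250 bases before the start of the gene in RefSeq TAIR10.1 were searched on both strands for letters known as binding sites of clock proteins. The evening element (AAAATATCT), bound by the morning factors CCA1 and LHY and by REVEILLE proteins, was found before 2 members, PCL1/LUX and BOA. The LUX-binding site (GATACG or GATTCG) was found before ELF3 and ELF4. The following stretches hold these matches, with each matched motif in capitals, read 5′ to 3′ on the strand of the gene and ending 21 bases before its start:
ELF3, chr2:11058824-11058923, plus strand: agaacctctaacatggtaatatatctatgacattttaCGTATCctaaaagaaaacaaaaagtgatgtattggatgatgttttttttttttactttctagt
ELF4, chr2:16734974-16735073, minus strand: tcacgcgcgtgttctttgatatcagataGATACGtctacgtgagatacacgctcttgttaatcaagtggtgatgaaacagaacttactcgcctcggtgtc
PCL1/LUX, chr3:17182832-17183021, plus strand: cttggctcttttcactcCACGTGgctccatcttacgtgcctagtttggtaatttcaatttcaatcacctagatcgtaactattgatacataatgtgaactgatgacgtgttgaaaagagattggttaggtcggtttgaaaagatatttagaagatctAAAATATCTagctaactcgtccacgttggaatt
BOA, chr5:24003768-24003867, plus strand: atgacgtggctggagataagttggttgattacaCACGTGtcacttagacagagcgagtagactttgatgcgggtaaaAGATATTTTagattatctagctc
ELF4-L1, chr2:12767465-12767564, plus strand: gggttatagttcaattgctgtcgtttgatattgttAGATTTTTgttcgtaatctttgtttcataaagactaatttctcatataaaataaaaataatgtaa

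In PCL1/LUX the evening element lay at -53 to -45 from the gene start, and in BOA it lay at -43 to -35 on the reverse strand. Both genes also held a G-box (CACGTG), the site of many light-signalling bZIP and bHLH factors, at -193 in PCL1/LUX and at -87 in BOA. The LUX-binding site lay at -92 in ELF4 and, on the reverse strand, at -83 in ELF3. ELF4-L1 held a CCA1-binding site (AAAAATCT) on the reverse strand at -85, and ELF4-L2, ELF4-L3, and ELF4-L4 held none of the 4 motifs in this window. Of the promoters of all 27444 protein-coding nuclear genes, 2.36% held the evening element, 6.69% the CCA1-binding site, 6.49% the G-box, and 12.1% the LUX-binding site. A match is a run of letters and not a measured binding site. With 1000 bases, a length chosen after the data were seen, the evening element was also found before ELF4, the CCA1-binding site before BOA and ELF4-L2, and the LUX-binding site before PCL1/LUX and ELF4-L4. At that length the evening element was before 3 of the 8 genes beside 7.24% of all promoters, the CCA1-binding site before 3 beside 21.1%, the G-box before 2 beside 14.8%, and the LUX-binding site before 4 beside 39.8%.

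**Figure D1:**
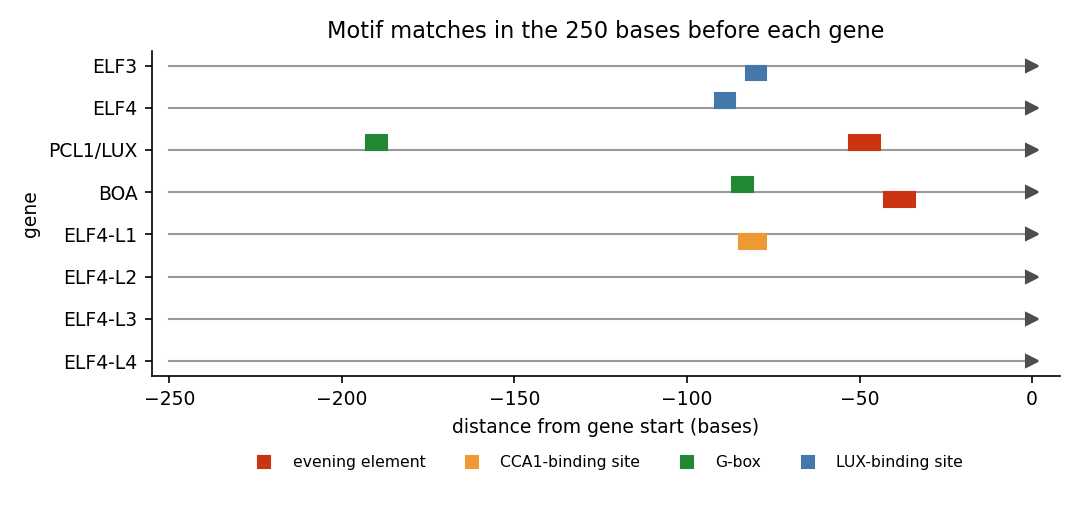
Matches to 4 motifs in the 250 bases before the start of each of the 8 genes, by distance from the gene start in bases, with boxes above the line on the strand of the gene and boxes below it on the reverse strand. The evening element lies close to the start in PCL1/LUX and BOA, the LUX-binding site lies between -92 and -78 in ELF4 and ELF3, and ELF4-L2, ELF4-L3, and ELF4-L4 have no match.

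The 5 members of the ELF4 family encode short proteins of 109 to 125 residues, against 695 for ELF3, 324 for PCL1/LUX, and 298 for BOA, by translation of the RefSeq coding sequences. ELF4-L2 and ELF4-L4 were the closest pair, with 90.4% identical residues, and ELF4-L3 had 69.4% identity with each of them. ELF4 had from 34.9% identity, with ELF4-L3, to 39.6%, with ELF4-L1. The best conserved stretch of 20 residues in the family is shown by its coding sequence, because it shows how far reads of one gene can be told from those of another. Capitals mark bases that differ from ELF4:
ELF4: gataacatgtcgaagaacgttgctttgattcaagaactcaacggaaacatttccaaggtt
ELF4-L1: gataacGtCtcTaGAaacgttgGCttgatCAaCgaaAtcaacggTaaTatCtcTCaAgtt
ELF4-L2: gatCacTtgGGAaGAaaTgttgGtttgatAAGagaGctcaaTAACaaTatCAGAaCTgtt
ELF4-L3: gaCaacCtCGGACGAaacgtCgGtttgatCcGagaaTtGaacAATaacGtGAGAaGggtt
ELF4-L4: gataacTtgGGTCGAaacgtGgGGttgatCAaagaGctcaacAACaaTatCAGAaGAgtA

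Within these 60 bases, 17 differed between ELF4 and ELF4-L1 and 24 between ELF4 and each of ELF4-L2, ELF4-L3, and ELF4-L4. In local alignments of the coding sequences, the longest run of identical bases between ELF4 and another family gene was 11, counted across gaps. These alignments with ELF4 covered 80 to 230 bases, and runs outside them were not sought. ELF4-L2 and ELF4-L4 shared a run of 29 bases and 84.9% of 344 aligned bases. PCL1/LUX and BOA shared 66.7% of aligned residues, 79.6% of 731 aligned coding bases, and a run of 44 identical coding bases. Reads that are shared between close copies could be split in the authors' counting, so the levels of ELF4-L2 and ELF4-L4, and of BOA beside PCL1/LUX, are uncertain in this respect.

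Of the evening complex, PCL1/LUX (AT3G46640, chromosome 3, 17183042 to 17186959), the DNA-binding subunit, had the most reads of the 8 genes in every replicate. It had 25.7 CPM in CK1 from 209 reads, 16.1 CPM in CK2 from 119 reads, and 75.9 CPM in CK3 from 519 reads. CK3 was high and CK2 low, and the 3 intervals, 22.4 to 29.5, 13.3 to 19.3, and 69.5 to 82.8 CPM, did not overlap. Over all features the libraries differed by more than counting error, and features with intervals apart were not counted. Nothing is therefore read from gaps between intervals, here or for ELF4, ELF3, and BOA. The ratio of reads was 2.95 for CK3 over CK1 (2.51 to 3.48), 4.71 for CK3 over CK2 (3.85 to 5.80), and 0.626 for CK2 over CK1 (0.496 to 0.788). The mean was 39.3 CPM ± 32.1 (SD, n = 3), and 20.9 CPM without CK3.

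ELF4 (AT2G40080, chromosome 2, 16734294 to 16734953), the small partner of ELF3, had few reads in CK1 and CK2 and many in CK3. It had 1.60 CPM in CK1 from 13 reads, 2.17 CPM in CK2 from 16 reads, and 41.6 CPM in CK3 from 284 reads. CK1 and CK2 overlapped in their intervals, 0.852 to 2.74 and 1.24 to 3.52 CPM, and CK3, with 36.9 to 46.7 CPM, stood far above both. The ratio of CK3 to CK1 was 26.0 (14.9 to 49.4) and that of CK3 to CK2 was 19.2 (11.6 to 34.0). The mean of 15.1 CPM ± 22.9 (SD, n = 3) lay far from the value of each of the 3 replicates, and without CK3 it was 1.88 CPM.

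ELF3 (AT2G25930, chromosome 2, 11058944 to 11063324), the scaffold of the complex, had the smallest ratios of CK3 to CK1 and to CK2 of the 4. It had 5.91 CPM in CK1 from 48 reads, 6.09 CPM in CK2 from 45 reads, and 14.3 CPM in CK3 from 98 reads. CK1 and CK2 were alike within counting error (ratio of CK2 to CK1, 0.671 to 1.58), and CK3 lay above both, with 11.6 to 17.5 CPM against upper bounds of 7.84 and 8.15 CPM. The ratio was 2.43 for CK3 over CK1 (1.70 to 3.50) and 2.35 for CK3 over CK2 (1.64 to 3.43). The mean was 8.78 CPM ± 4.81 (SD, n = 3), and 6.0 CPM without CK3, a fall of less than 1.5 times.

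BOA (AT5G59570, chromosome 5, 24003888 to 24007844), the relative of LUX, was near the limit of detection in CK1 and CK2. It had 4 reads in CK1, or 0.492 CPM, 1 read in CK2, or 0.135 CPM, and 34 reads in CK3, or 4.97 CPM. CK3, with an interval of 3.44 to 6.95 CPM, stood above CK1, which reached 1.26 CPM, and CK2, which reached 0.754 CPM. The ratio of CK3 to CK1 was 10.1 (3.60 to 39.2) and that of CK3 to CK2 was 36.7 (6.16 to 1493), the width of the second coming from a single read. The mean was 1.87 CPM ± 2.70 (SD, n = 3), and 0.314 CPM without CK3.

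**Figure D2:**
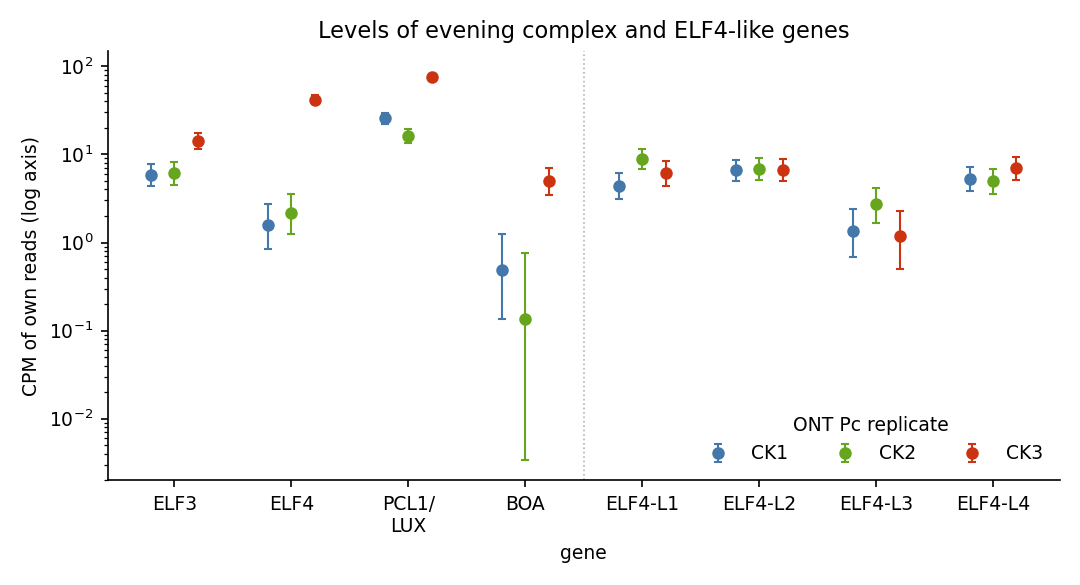
CPM rescaled to own reads on a log axis for each of the 8 genes in the ONT Pc replicates CK1, CK2, and CK3, with exact Poisson 95% intervals of the reads. ELF3, ELF4, PCL1/LUX, and BOA lie highest in CK3, at 14.3, 41.6, 75.9, and 4.97 CPM, and the CK3 intervals of the ELF4-like genes overlap those of the other replicates.

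Of the 4 ELF4-like genes, 0 had an interval in CK3 apart from those of both other replicates. The same count was not made over all features, so nothing is read from it. ELF4-L1 (AT2G29950, chromosome 2, 12767585 to 12768437) had 4.43, 8.94, and 6.14 CPM in CK1, CK2, and CK3, from 36, 66, and 42 reads. It was highest in CK2, with a ratio of 2.02 for CK2 over CK1 (1.32 to 3.12), and CK3 overlapped with both. ELF4-L1 lies almost wholly within CYP5 (AT2G29960), which is on the other strand and overlaps it by 828 of its 853 bases. CYP5 had 756, 642, and 663 reads, and since the use of strand in the counting is not given in the sources used here, reads of the pair cannot be told apart.

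ELF4-L2 (AT1G72630, chromosome 1, 27344181 to 27345585) had 6.65, 6.90, and 6.73 CPM, from 54, 51, and 46 reads. Its mean of 6.76 CPM ± 0.131 (SD, n = 3) had the smallest spread of the 8 genes. ELF4-L4 (AT1G17455, chromosome 1, 5997057 to 5998599), its closest relative, had 5.29, 5.01, and 7.02 CPM, from 43, 37, and 48 reads. The intervals of ELF4-L4 overlapped in all 3 replicates, and the ratio of CK3 to CK2 was 1.40 (0.894 to 2.21). ELF4-L3 (AT2G06255, chromosome 2, 2457573 to 2459940) had 1.35, 2.71, and 1.17 CPM, from 11, 20, and 8 reads. It was highest in CK2 and its ratio of CK3 to CK2 was 0.432 (0.165 to 1.02), so at this depth no difference between its replicates was detectable.

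Summed over the 4 genes, the ELF4-like genes were at 17.7, 23.6, and 21.1 CPM in CK1, CK2, and CK3. ELF3, ELF4, PCL1/LUX, and BOA together were at 33.7, 24.5, and 137 CPM. A share of reads within a family does not depend on how a replicate is scaled. ELF4 took 8.28% of the reads of its family in CK1 (13 of 157, interval 4.48 to 13.7%) and 8.42% in CK2 (16 of 190, 4.89 to 13.3%). In CK3 it took 66.4% (284 of 428, 61.7 to 70.8%). BOA took 1.88% of the reads of BOA and PCL1/LUX in CK1 (0.514 to 4.74%), 0.833% in CK2 (0.0211 to 4.56%), and 6.15% in CK3 (4.30 to 8.49%). The interval of the ELF4 share in CK3 was apart from those of both other replicates, while for BOA the interval in CK3 overlapped with both. These intervals cover counting error only, and such shares were not computed for other families. The difference of CK3 also led to the choice of these genes, so nothing is read from the gap.

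**Figure D3:**
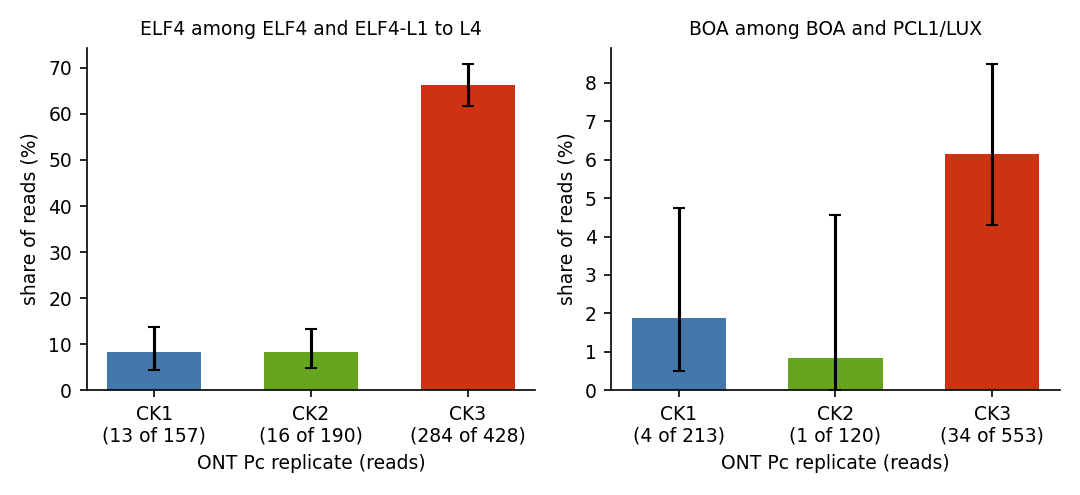
Share of reads, in percent, of ELF4 among ELF4 and the 4 ELF4-like genes (left) and of BOA among BOA and PCL1/LUX (right) in CK1, CK2, and CK3, with exact Clopper-Pearson 95% intervals. The ELF4 share is 8.28%, 8.42%, and 66.4%, and the BOA share is 1.88%, 0.833%, and 6.15% with overlapping intervals.

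The read ratio between subunits of the complex also differed between replicates. Reads of ELF4 per read of ELF3 were 0.271 in CK1, 0.356 in CK2, and 2.90 in CK3. Reads of PCL1/LUX per read of ELF4 were 16.1, 7.44, and 1.83. Reads of PCL1/LUX per read of ELF3 were 4.35, 2.64, and 5.30. By reads, the order of ELF4 and ELF3 was therefore turned in CK3, whereas PCL1/LUX had more reads than both in each replicate. The turn was not seen per kb of RefSeq transcript, where ELF4 lay above ELF3 in each replicate. On that scale ELF4 had 2.59, 3.50, and 67.1 CPM per kb in CK1, CK2, and CK3, and ELF3 had 2.15, 2.22, and 5.22.

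By mean CPM, where no transcript length is divided out, the order was PCL1/LUX, ELF4, ELF3, ELF4-L2, ELF4-L1, ELF4-L4, BOA, and ELF4-L3. PCL1/LUX was above ELF4 in 3 of 3 replicates, by 2.38 ± 1.41 on the log2 scale (SD, n = 3, pseudocount 0.5 CPM). ELF4-L4 was above BOA in 3 of 3, by 2.04 ± 1.40. The other neighbours changed order between replicates and differed by less than their spread. ELF4 was above ELF3 in 1 of 3 replicates (mean -0.47 ± 1.72), ELF3 above ELF4-L2 in 1 of 3 (0.24 ± 0.69), ELF4-L2 above ELF4-L1 in 2 of 3 (0.10 ± 0.44), ELF4-L1 above ELF4-L4 in 1 of 3 (0.12 ± 0.57), and BOA above ELF4-L3 in 1 of 3 (-0.51 ± 2.05), all as log2 differences with SD over n = 3. ELF4 ranked 6 of the 8 in CK1, 7 in CK2, and 2 in CK3.

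Per kb of RefSeq transcript, ELF4, whose transcript has 619 bases, came first with a mean over the replicates of 24.4 CPM per kb. PCL1/LUX, with a median of 1845 bases over its 3 transcripts, came next with a mean of 21.3. The paper gives Nanopore levels as CPM, with no division by length. Whether the reads of a gene rise with transcript length was not tested, so this scale may favour short transcripts. The rank of ELF4 came from CK3, where it had 67.1 CPM per kb and PCL1/LUX 41.2. In CK1 ELF4 had 2.59 CPM per kb and in CK2 3.50, below PCL1/LUX, ELF4-L1, ELF4-L2, and ELF4-L4 in both. Without CK3, PCL1/LUX came first with a mean of 11.3 CPM per kb and ELF4 had 3.04, rank 5 of the 8. ELF3, with 2749 bases, was at rank 6 with a mean of 3.19 CPM per kb, against rank 3 by CPM. BOA had the lowest mean on this scale with 0.755 CPM per kb. Among reference genes with reads, 83.4% had a lower mean CPM than PCL1/LUX, 63.9% than ELF4, 51.5% than ELF3, and 26.9% than BOA. These means include CK3. Without it the mean of ELF4 was 1.88 CPM, and the shares were not recomputed.

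Each pair of replicates was then compared over all 17838 features with at least 20 reads over the 3 replicates, on log2 CPM with a pseudocount of 0.5 CPM, and all 8 genes passed this minimum. A feature was called higher or lower when it was at least 2-fold apart. In CK3 over CK1, 4 of the 8 genes were called higher (ELF3, ELF4, PCL1/LUX, and BOA), beside 3.45% of all features, and 0 lower, beside 1.23%. In CK3 over CK2, the called genes were again these 4, beside 2.68% of features higher, and 0 were lower, beside 2.48%. In CK2 over CK1, 0 of the 8 were called higher, beside 3.11%, and 0 lower, beside 0.875%. The difference of CK3 led to the choice of these genes, so nothing is read from the counts that involve it.

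In the CK2 over CK1 pair the genes lay on both sides of the median of all features. PCL1/LUX was at -0.66 and BOA at -0.64 on the log2 scale, while ELF4-L1, whose ratio of reads was just above 2, was at 0.94 with the pseudocount and ELF4-L3 at 0.79. ELF3 was at 0.04 and ELF4 at 0.34, and the median of the 8 genes was 0.05 beside 0.06 for all features. The percent of features at least as low was 3.53 for PCL1/LUX, 3.74 for BOA, and 34.5 for ELF4-L4. The percent at least as high was 3.60 for ELF4-L1, 5.15 for ELF4-L3, 20.4 for ELF4, 50.7 for ELF4-L2, and 52.0 for ELF3. In CK3 over CK1, ELF4 was at 4.32, BOA at 2.46, PCL1/LUX at 1.54, and ELF3 at 1.21, and the 4 ELF4-like genes lay between -0.15 and 0.43. Of all features, 0.0336% were at least as high as ELF4 in this pair, and 1.95% were at least as high as ELF3. Because the difference of CK3 led to the choice of these genes, nothing is read from these percentages either. In CK3 over CK2, the values were 3.98 for ELF4, 3.11 for BOA, 2.20 for PCL1/LUX, and 1.17 for ELF3, and those of the ELF4-like genes ran from -0.94 to 0.45. The pairs with CK3 share that replicate and are not independent of each other. With a 3-fold limit, ELF4 and BOA were called higher in CK3 over CK1, beside 0.712% of features, and ELF4, BOA, and PCL1/LUX in CK3 over CK2, beside 0.527%.

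**Figure D4:**
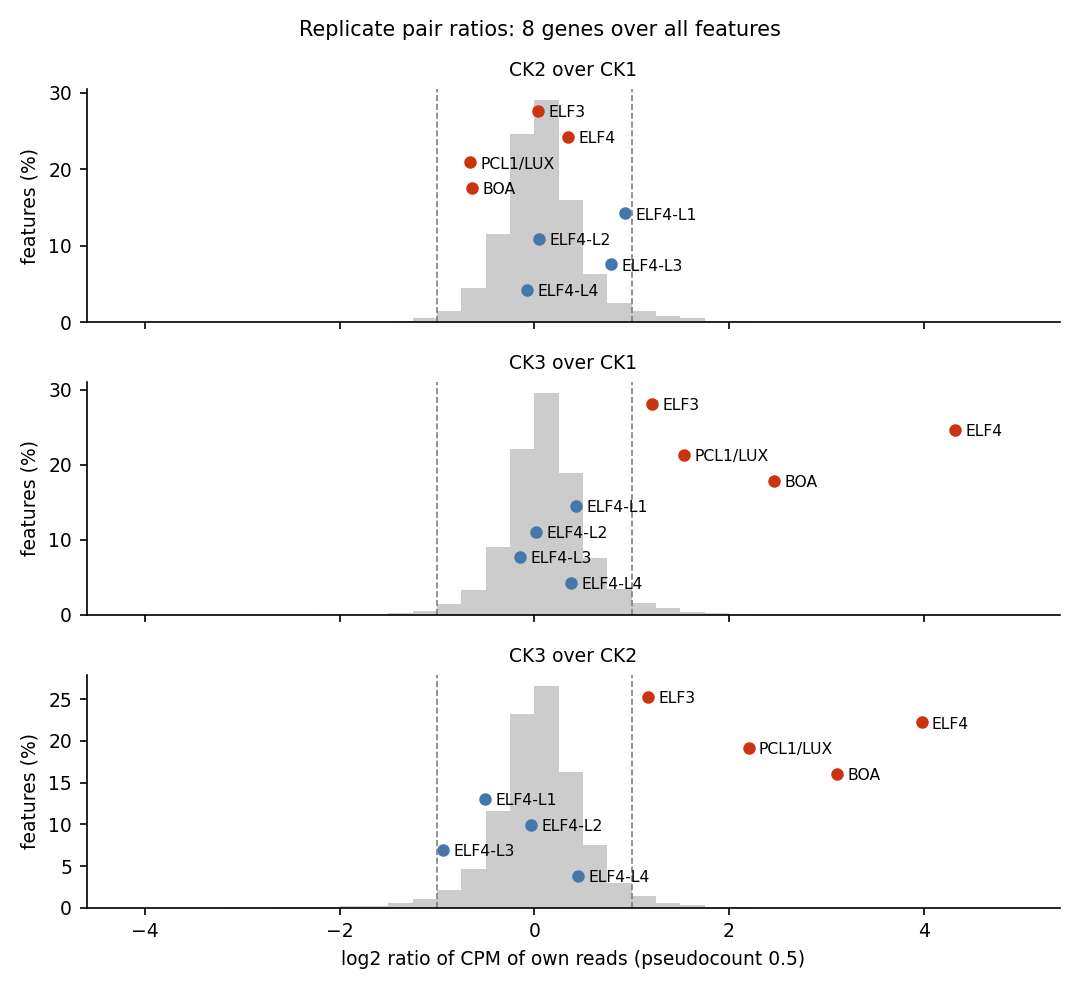
Log2 ratio of rescaled CPM (pseudocount 0.5) for the 3 replicate pairs, with grey bars for the percent of the 17838 features and points for ELF3, ELF4, PCL1/LUX, and BOA (red) and ELF4-L1 to ELF4-L4 (blue). The height of a point has no meaning, and dashed lines mark 2-fold. The red points lie right of the 2-fold line in both pairs with CK3, up to 4.32 for ELF4, and the blue points stay inside the 2-fold lines in all 3 pairs.

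Besides CYP5, 3 genes with values overlap the members on the other strand. AT3G46650, which overlaps PCL1/LUX by 1507 bases, had 1, 3, and 1 reads. UGT76E1 (AT5G59580), which overlaps BOA by 1896 bases, had 6, 2, and 4 reads, similar in number to BOA in CK1 and CK2. ALPHA-VPE (AT2G25940), which overlaps ELF3 by 24 bases, had 1, 3, and 3 reads. AT2G08135, an antisense RNA that overlaps ELF3 by 183 bases, was not among the features with expression values. ELF4, ELF4-L2, ELF4-L3, and ELF4-L4 overlap no annotated gene.

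Other genes of the clock were counted in the same way. Their lists were chosen with earlier results of these data known, so nothing is read from counts that involve CK3. Of the 6 known targets of the evening complex (PRR9, PRR7, GI, LNK1, PIF4, and PIF5), 0 were called in either direction in any pair. From 0.875% to 3.45% of all features were called in 1 direction of a pair, so a count of 0 in so short a list says little. Their median log2 ratio was -0.26 for CK3 over CK1 and -0.31 for CK3 over CK2, beside 0.10 and 0.05 for all features. PIF4, a bHLH factor that promotes stem growth, had the highest level of the list, with 201, 215, and 212 CPM. LNK1, a coactivator of clock genes, had 67.3, 71.2, and 39.4 CPM, and PRR9, a daytime repressor of CCA1 and LHY, had 28.8, 33.8, and 20.2 CPM. Both were lowest in CK3 by less than 2-fold.

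The list of 5 pseudo-response regulators includes PRR9, PRR7, PRR5, and TOC1, which repress CCA1 and LHY in sequence from morning to night. In CK3 over CK1, 3 of the 5 were called higher (PRR5, PRR3, and TOC1), beside 3.45% of all features. In CK3 over CK2, 2 were called higher (PRR3 and TOC1), beside 2.68%. PRR3 had 9, 3, and 96 reads, and TOC1, the evening member, had 33, 47, and 184 reads. PRR7, the highest of the list, had 87.8, 80.0, and 67.9 CPM. In CK2 over CK1, 0 of the 5 were called, beside 3.11% of features higher and 0.875% lower, and PRR3 was at -0.83. Of the 7 morning MYB-like and LNK genes, LHY, a repressor of evening genes, was called lower in CK3 over CK1, beside 1.23% of features. LHY and RVE8 were called lower in CK3 over CK2, beside 2.48%. LHY had 9.48, 13.3, and 4.39 CPM, RVE8, an activator that binds the evening element, had 14.9, 19.4, and 8.19 CPM, and RVE4, the highest of the list, had 82.6, 101, and 89.0 CPM. The median of this list was -0.77 in CK3 over CK1 and 0.17 in CK2 over CK1.

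Of 5 other evening clock genes, FKF1, a blue-light receptor of the flowering pathway, was the 1 called, with 5, 7, and 82 reads. FKF1 was called higher in CK3 over CK1, beside 3.45% of all features, and in CK3 over CK2, beside 2.68%. GI, which stabilises the F-box protein ZTL, had 7.39, 7.99, and 10.2 CPM, and CHE, the highest of the list, had 105, 86.5, and 116 CPM. Genes acting upstream of or beside the complex came next. The activators of ELF4 transcription had 13.5, 14.9, and 13.9 CPM for FHY3, 3.08, 4.33, and 4.83 CPM for FAR1, and 5.05, 3.38, and 3.66 CPM for HY5, and 0 of the 3 were called. Of 6 ELF3 partners and E3 ligases, 0 were also called, while at most 3.45% of all features were called in 1 direction of a pair. XBAT31, an E3 ligase of ELF3 and the highest of them, had 120, 170, and 193 CPM, and TZP, a nuclear partner of phytochrome B, had 21.8, 17.1, and 13.2 CPM. Of 3 GARP relatives of LUX, MYBC1 was called higher in CK2 over CK1 and in CK3 over CK1, beside 3.11% and 3.45% of all features. MYBC1 had 23, 50, and 43 reads, while AT3G10760 had 148, 124, and 132 reads and AT5G05090 had 159, 167, and 134.

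**Figure D5:**
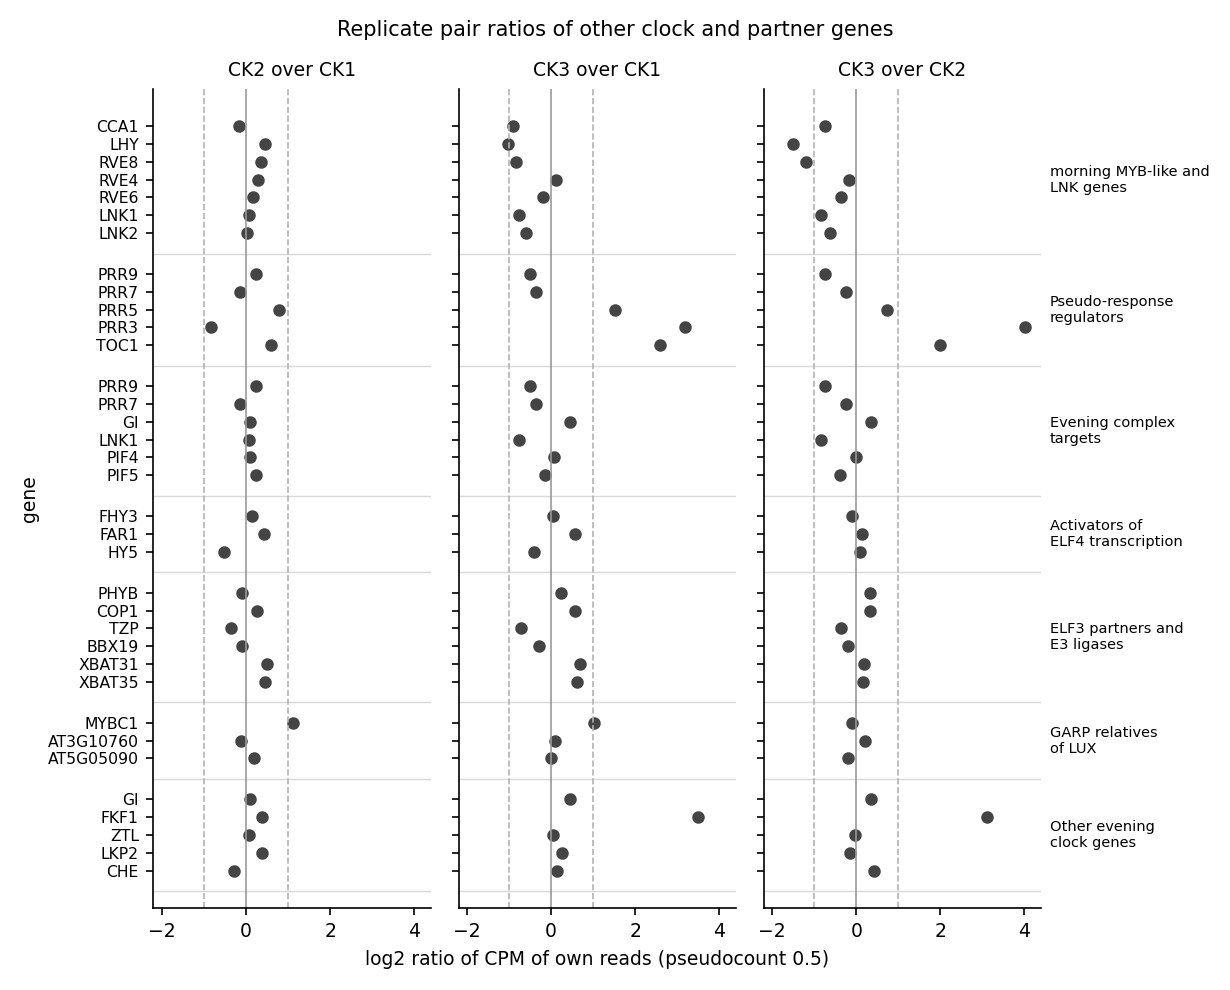
Log2 ratio of rescaled CPM (pseudocount 0.5) of each gene of 7 lists of other clock and partner genes in the 3 replicate pairs, with dashed lines at 2-fold. PRR9, PRR7, GI, and LNK1 are in more than 1 list and are drawn in each. PRR3, TOC1, and FKF1 lie furthest right in the pairs with CK3, with PRR3 at 4.00 in CK3 over CK2, LHY lies at -1.49 in CK3 over CK2, and the evening complex targets stay inside the dashed lines.

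The reference genes nearest to a member in pattern were found among 15368 genes with at least 50 reads, by the distance between their log2 levels in the 3 replicates after centring each gene. Nearest to ELF4 were BT2 (AT3G48360, distance 0.055), with 6, 8, and 159 reads, AT4G33980 (0.43), with 1, 2, and 118 reads, and RVE2 (AT5G37260, 0.45), with 1, 5, and 119 reads. BT2 was the single gene within 0.25 of ELF4. Nearest to PCL1/LUX were AT1G62480 (0.21), with 1224, 742, and 2593 reads, AT4G33985 (0.22), with 22, 15, and 68, and XTH25 (AT5G57550, 0.22), with 17, 11, and 59. Nearest to ELF3 were AT4G04415 (0.018), BGAL10 (AT5G63810, 0.042), and CHL (AT3G47860, 0.048), and 83 genes lay within 0.25 of it. Likeness over 3 replicates is a description of these libraries.

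In the PacBio list, the 5 genes of the ELF4 family are the whole reference content of the Pfam family DUF1313, with 6 reference transcripts. A single PacBio isoform at 1 locus, PB.1690.2, is placed in that family, and the list does not say to which of the 5 genes it belongs. Of the 620 families with 4 to 6 reference genes, 84 had no PacBio isoform and 61 had 1, and the median was 5. PCL1/LUX, with 3 reference transcripts, and BOA, with 2, are in the Myb-like DNA-binding domain family, which holds 152 isoforms at 69 loci beside 271 reference genes. ELF3 is in no family of the list. The cDNA of this library was size-fractionated, and the transcripts of the ELF4 family have 619 to 1057 bases in RefSeq. The part of this step in the number of isoforms was not tested.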

How the data were processed

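Aboveground parts of wild-type plants were sequenced as 3 ONT Pc replicates and 1 PacBio library. For ONT Pc, base calling was done in Guppy, consensus sequences were made in Racon, and mapping to the *Arabidopsis* genome was done in GMAP. The authors estimated counts in Salmon and deposited CPM per gene. The submitters' processing notes name TAIR10 and minimap2. For PacBio, the authors deposited isoform and transcript identifiers by Pfam family, which hold no measurement. Unused columns of single samples numbered 0.

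Reads were recovered by dividing each column by its value of 1 read (tolerance 0.001 reads), and CPM were recomputed on own reads. Library pairs differed by more than sampling noise. The chi-square, taken over 1 replicate of each pair, was 5.69 to 7.71 per feature, against less than 1 by counting alone. Pair ratios used log2 with a pseudocount of 0.5 CPM and at least 20 reads. With 1 group there was no contrast, so no differential test, on recovered reads or otherwise, was run. Read recovery and pair ratios were tested on simulated reads with counting error only, with changes set in genes with many reads. That test does not cover the wider spread of these libraries or genes with few reads. Members and lists were chosen with earlier results of these data known. All 8 members are named, and in each list the gene with the highest mean CPM and the 2 of widest log2 range, or all genes of a list of 3, and the 3 genes nearest in pattern to each of ELF3, ELF4, and PCL1/LUX. The text also names every other gene that was called. Names, positions, and sequences came from RefSeq TAIR10.1, whose annotation was used alone because the table has no coordinates. Proteins were aligned globally with BLOSUM62, and coding sequences were aligned locally. Sequences were handled in Biopython 1.88, intervals computed in scipy 1.17.1, tables in pandas 2.3.3 and numpy 2.4.6, and figures drawn in matplotlib 3.10.9, under Python 3.11.15.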

Additional observations from a re-analysis of the deposited data

How the results depend on the processing

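No paired analysis was possible because the ONT Pc replicates form a single group, so there is no contrast to block. The 1000-base promoters were chosen after the data were seen. As deposited, the values carry the running divisor, so the median level of the 8 genes fell from 5.76 to 3.20 CPM, their median log2 ratio became -0.86 for CK2 over CK1, -0.72 for CK3 over CK1, and 0.20 for CK3 over CK2, and the genes called were 2 lower in CK2 over CK1 (40.9% of all features), 2 higher (0.146%) and 4 lower (83.3%) in CK3 over CK1, and 3 higher (0.320%) and 1 lower (8.86%) in CK3 over CK2. With a pseudocount of 0.1 CPM, 1 gene was called lower in CK2 over CK1 (1.66% of features) and 1 in CK3 over CK2 (3.24%). With a 3-fold limit, 2 were called higher in CK3 over CK1 (0.712%). Median-of-ratios scaling moved the median of all features in CK3 over CK1, 0.10, to near 0, and list medians in that pair to -0.073 for activators of ELF4, 0.30 for ELF3 partners, and -0.029 for GARP relatives. On the given strand alone, 1 gene had the evening element (1.29% of all promoters), 0 the CCA1-binding site (3.79%), and 1 the LUX-binding site (6.12%), and with 1000 bases 3 had the CCA1-binding site (21.1%) and 4 the LUX-binding site (39.8%). Without CK3, the mean of ELF4 was 1.88, of BOA 0.314, and of PCL1/LUX 20.9 CPM. Leaving out replicates in turn gave a median level of 5.21 to 6.21 CPM. Pair ratios use 1 library on each side and have no value with a replicate left out. BOA and ELF4-L3, with 39 reads each in all, are limited most by depth.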
